A study of Mus musculus with 12 samples.

Results

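The effect described here is the average change in messenger RNA that came with loss of Zfp148 and Zfp281, a pair of zinc finger genes, in 2 populations of mouse thymocytes. All 12 libraries of the series entered, and 13383 genes were tested. For each gene the log2 fold change of double knockout (dKO) against control was fitted in immature CD4 cells (ImCD4) and in immature CD8 cells (ImCD8), and the mean of these 2 values was tested. A gene belonged to the common program when its mean effect reached a Benjamini-Hochberg adjusted p of 0.05 or less in edgeR's quasi-likelihood test and its fitted effect had the same sign in both populations. By this rule 2337 of 13383 genes were members.

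Every mouse carried floxed alleles of both genes (Zfp148 fl/fl and Zfp281 fl/fl). Control ImCD4 libraries were marked Cd4-Cre negative and dKO ImCD4 libraries Cd4-Cre positive. In ImCD8 the genotype field read the other way round, with Cre marked in the libraries titled control and its absence in those titled dKO, so "control" and "dKO" follow the sample titles throughout. Both gates took CD69-positive thymocytes that were low for CD44; the ImCD4 gate asked for CD4 without CD8 or H2-Kb, and the ImCD8 gate for CD8 and T cell receptor beta without CD4. Each of the 4 groups had 3 libraries. The labels give neither the age and number of mice behind a library nor any pooling of animals, and the p-values below rest on library-to-library spread, some of which may be technical.

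Zfp148 and Zfp281 encode related zinc finger transcription factors that bind G-rich stretches of DNA, many of them in promoters, and both have been described as repressors and as activators of transcription. Cre under the Cd4 promoter acts from the double-positive stage, when thymocytes carry both coreceptors, so the cells sorted here had passed through earlier development with both factors. At the immature single-positive stage thymocytes have just received a selecting signal through their T cell receptor and commit to the CD4 or the CD8 lineage. Control cells expressed the defining coreceptors of their gates: Cd4 averaged 1115 CPM (counts scaled to a common library size and composition) in ImCD4 and 3.06 CPM in ImCD8, and Cd8a 53.4 and 1626 CPM.

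Gene counts per library were 7315833 to 10943143. In a principal component plot the leading axis (66.1% of the variance) split the populations, the second (11.9%) separated dKO from control, while on the third (5.31%) 4 libraries, replicate 3 of every group, lay away from the rest (replicate numbers here follow only the order of the records). In ImCD4 the dKO libraries held more gene counts than the controls without overlap (9319732 to 10943143 against 8276742 to 9173424), and a smaller mitochondrial share (0.633% to 0.961% against 1.07% to 1.31%). Reads in no gene (10.5% to 12.9% against 13.6% to 16.4%) and ambiguous reads (5.55% to 5.67% against 5.37% to 5.46%) were also apart. In ImCD8 all these measures overlapped between the groups. Their part in the common program was not tested. Without the 4 libraries the program held 2187 genes, of which 1788 were members in the full set.

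The targeted transcripts were low in every library titled dKO. Zfp148 measured 177, 182 and 182 CPM in control ImCD4 against 67.7, 68.9 and 63.0 in dKO, and 162, 171 and 163 CPM in control ImCD8 against 45.6, 62.8 and 56.3 in dKO. Zfp281 measured 457, 441 and 562 CPM in control ImCD4 against 18.4, 16.2 and 21.4 in dKO, and 128, 117 and 112 CPM in control ImCD8 against 14.9, 13.3 and 10.2 in dKO. For both genes all 6 dKO libraries lay below all 6 controls. The mean log2 effects were -1.51 ± 0.06 (SE) for Zfp148 and -3.96 ± 0.10 for Zfp281, with edgeR adjusted p of 1.9e-10 and 7.0e-13. An exact two-sided permutation test within populations gave p = 0.005 for each gene, the smallest that its 400 arrangements allow. The labels do not say which exons Cre removes, and residual counts may come from truncated transcripts.

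Loss of both factors moved genes in both directions. Of the 13383 tested genes, the mean effect was called for 2375 (17.7%), and 2337 (17.5%) met the requirement of 1 direction in both populations. The common program had 1263 genes higher in dKO (9.44% of those tested) and 1074 lower (8.03%). The falls were larger: the median mean effect was -0.49 on the log2 scale among genes that fell and 0.34 among those that rose, against 0.01 over all tested genes. A mean change of at least 2-fold was fitted for 207 of the genes that fell (19.3%) and for 122 of those that rose (9.66%), against 3.07% of all tested genes. Members that fell also had a larger median standard error (0.0920 against 0.0755), and a larger error asks for a larger effect before a gene is called. The balance of directions turned with the scaling: when libraries were scaled by size alone, 1057 members were higher and 1176 lower. Member genes were expressed above the average, with a median of 42.2 CPM in control ImCD4 against 24.1 CPM over all tested genes.

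Only part of the program could be seen in a single population. Alone, 1797 genes (13.4%) were called in ImCD4 and 822 (6.14%) in ImCD8. Of the program, 490 genes were called in each population, 940 in ImCD4 only, 252 in ImCD8 only, and 655 in neither. The 490 comprised 190 higher and 300 lower, and the 655 comprised 376 higher and 279 lower. The median standard error was 0.0815 for the mean effect, 0.114 in ImCD4 and 0.116 in ImCD8. Near the threshold, Hnrnpa1 was just inside (0.20, edgeR adjusted p = 0.0499) and Rps27a just outside (0.29, adjusted p = 0.0501).

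**Figure D1:**
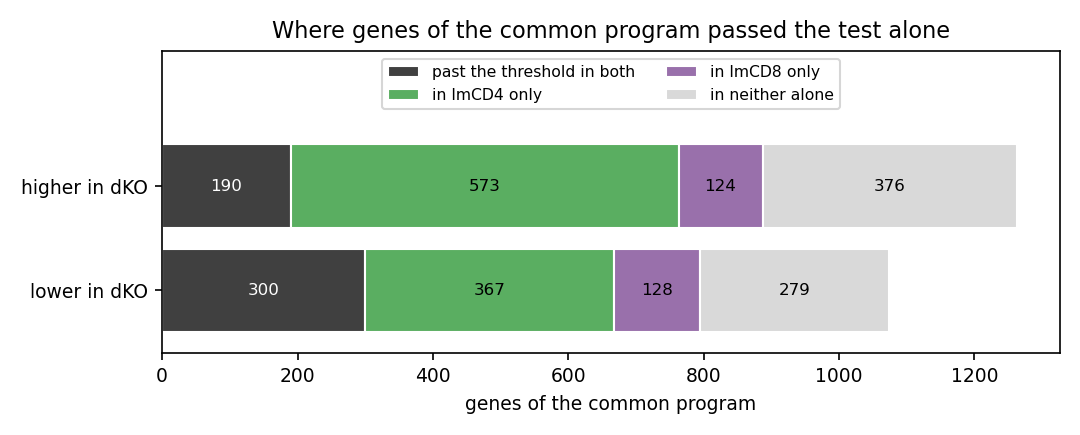
Genes of the common program (horizontal axis, number of genes) that rose or fell in dKO, divided by the population in which each also passed the threshold alone. The bars hold 1263 and 1074 genes, and 655 of the 2337 passed in neither population alone.

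The requirement of a called mean and a shared sign favours effects of like size, so the following describes the members and supports nothing. The smaller of the 2 fitted log2 effects was at least 50% of the larger for 1522 of the 2337 genes and under 10% of it for 55, and over all tested genes the counts were 4305 and 811 of 13383. Effects were larger in ImCD4 for 62.4% of the program and for 57.6% of all tested genes. The difference between the populations was itself called for 30 members (1.28%), against 58 of all tested genes (0.433%). All 3 dKO libraries lay on the same side of all 3 controls in both populations for 1268 members, 604 above and 664 below. Over all tested genes this held for 1369 (10.2%), with dKO above for 4.95% and below for 5.28%.

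**Figure D2:**
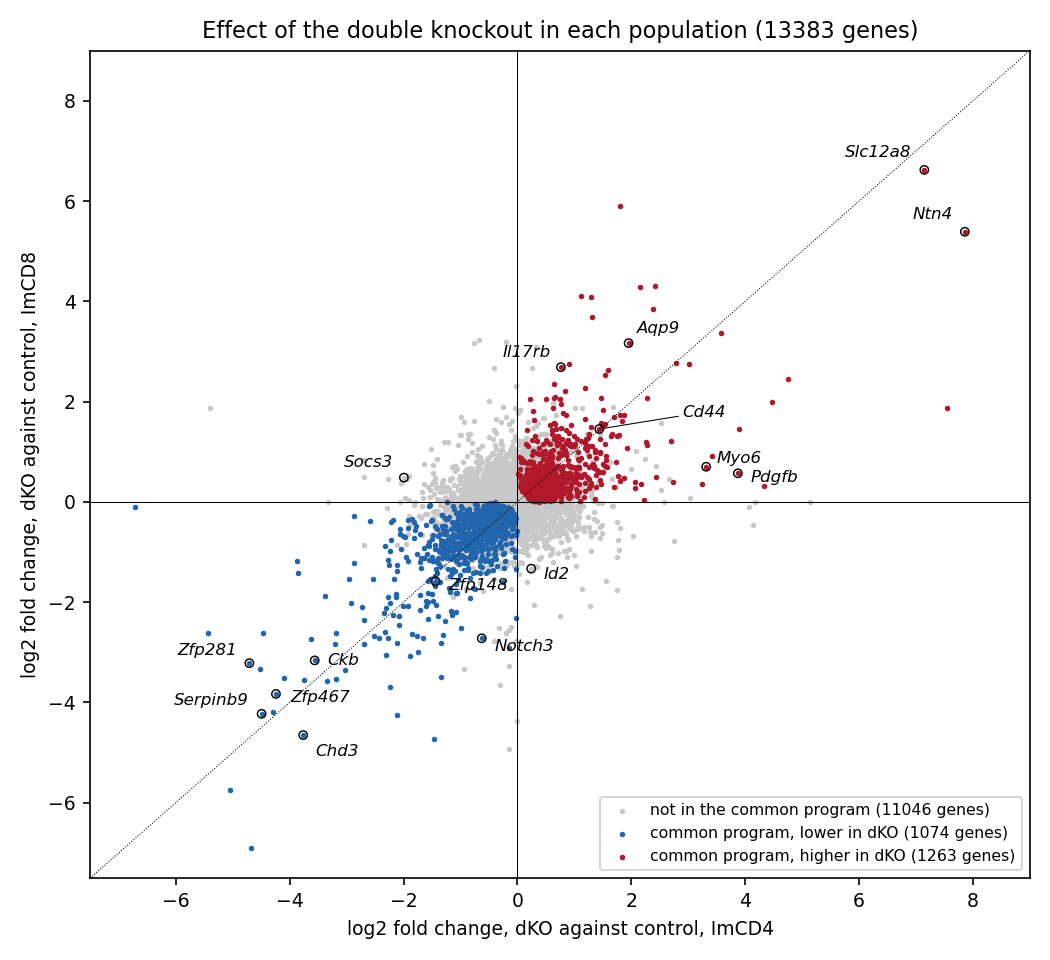
Fitted log2 fold change of dKO against control in ImCD4 (horizontal axis) and in ImCD8 (vertical axis), 1 point per tested gene. Red points are the 1263 members that rose, blue points the 1074 that fell and grey points genes outside the program, and the dotted line marks equal effects. Slc12a8, Ntn4, Chd3 and Serpinb9 lie far from 0 on both axes, while Myo6 and Pdgfb lie far out in ImCD4 only.

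The largest falls are given for genes of at least 5 CPM in the higher group of each population with no overlap in either, and these had varied functions. Serpinb9, an inhibitor of the cytotoxic protease granzyme B, fell by 4.36 on the log2 scale, and Chd3, an ATP-dependent remodeller of the NuRD complex, by 4.21. Zfp467, a zinc finger gene, fell by 4.04, Ptprn, a membrane protein of neuroendocrine secretory granules, by 3.81, Rundc3a by 3.64 and the brain-type creatine kinase gene Ckb by 3.36. Tmem35, Pld4, Ndrg2, Igsf23, Espn and Tanc2 completed the 12 under these limits and fell by 2.46 to 2.9. Outside the limits, Cacnb3 fell by 3.54, from under 5 CPM in ImCD8. Standard errors of these 12 ranged from 0.15 to 0.21, and each was also called in each population alone.

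Chd3 (chromosome 11, 69343273 to 69369406, minus strand, mm10) measured 285, 271 and 370 CPM in control ImCD4 and 22.9, 17.2 and 28.2 in dKO. In ImCD8 it measured 169, 164 and 194 CPM in control and 9.27, 7.54 and 4.21 in dKO (mean effect -4.21 ± 0.16, edgeR adjusted p = 1.1e-08). The lowest control library was thus far above the highest dKO library in each population. Serpinb9 (chromosome 13, 33003250 to 33017957, plus strand) measured 14.0, 16.5 and 16.1 CPM in control ImCD4 and 0.624, 0.766 and 0.642 in dKO. Its ImCD8 levels were 16.5, 15.1 and 19.9 CPM in control and 0.635, 1.01 and 1.02 in dKO (mean effect -4.36 ± 0.16, adjusted p = 2.7e-11). Its levels overlapped between the 2 populations in control and in dKO.

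Zfp467 (chromosome 6, 48427697 to 48445825, minus strand) started from unequal levels, with 59.0, 54.4 and 76.1 CPM in control ImCD4 and 11.4, 8.17 and 8.61 in control ImCD8. It measured 3.12, 3.06 and 3.85 CPM in dKO ImCD4 and 0.381, 1.01 and 0.455 in dKO ImCD8. The groups did not overlap, and the fall on the log2 scale was 4.24 in ImCD4 and 3.83 in ImCD8. Ckb (chromosome 12, 111669361 to 111672338, minus strand), which buffers cellular ATP, also differed in its starting level. It measured 473, 428 and 530 CPM in control ImCD4 against 32.0, 34.6 and 55.2 in dKO, and 85.1, 74.8 and 48.8 CPM in control ImCD8 against 9.27, 8.09 and 5.91 in dKO. Every dKO library of Ckb lay below every control of its own population, but the highest dKO ImCD4 library exceeded the lowest control ImCD8 library.

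Among the largest rises under the same limits, 2 genes were almost silent in controls. Slc12a8, a solute carrier of the cation-chloride cotransporter family (chromosome 16, 33517328 to 33664135, plus strand), measured 0.471, 0.442 and 0.106 CPM in control ImCD4 and 47.2, 49.2 and 51.4 in dKO. Its ImCD8 levels were 0.224, 0.423 and 0.319 CPM in control and 32.3, 34.4 and 30.4 in dKO. Counts summed over 3 libraries went from 9 to 1524 in ImCD4, 147 times as many per unit of library size (95% counting interval 77.4 to 323). In ImCD8 they went from 8 to 895, a ratio of 103 (52.2 to 240). Ntn4, a secreted netrin (chromosome 10, 93640681 to 93747207, plus strand), went from 1 count summed over control ImCD4 to 365 in dKO, and from 5 to 245 in ImCD8. The dKO levels of Ntn4 were 11.9, 12.5 and 10.8 CPM in ImCD4 and 10.2, 11.4 and 4.66 in ImCD8, where the third library was the lowest. These intervals cover counting error only.

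The other large rises began from measurable levels. Aqp9, a channel for water and glycerol (chromosome 9, 71110659 to 71168682, minus strand), rose in ImCD4 from 21.2, 24.2 and 20.8 to 84.3, 87.2 and 84.9 CPM. In ImCD8 Aqp9 rose from 2.69, 2.54 and 2.23 to 22.0, 25.9 and 19.0 CPM (mean effect 2.56 ± 0.09, edgeR adjusted p = 3.5e-11). Control and dKO did not overlap within a population, while the dKO ImCD8 libraries overlapped the control ImCD4 libraries. Cd44, the hyaluronan receptor that marks activated and memory T cells, rose from 27.1, 22.7 and 22.7 to 72.2, 71.0 and 52.7 CPM in ImCD4. In ImCD8 it rose from 26.0, 23.8 and 28.7 to 85.0, 72.2 and 58.8 CPM (mean effect 1.45 ± 0.10, adjusted p = 2.6e-07). Both gates sorted for low CD44 protein, so these messenger levels come from cells below a protein limit.

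Myo6, Il17rb, Caskin2, Chdh, Axl, Ccr8 and Actn2 were also among the 12 largest rises, with mean effects between 1.34 and 2.01. Members of this set were less even between the populations. Myo6, an unconventional myosin that moves toward the minus end of actin, rose in ImCD4 from 47.8, 76.1 and 67.2 to 562, 478 and 867 CPM. In ImCD8 Myo6 measured 3.25, 3.24 and 2.87 CPM in control and 4.06, 4.05 and 7.16 in dKO, a change of 0.70 that did not pass alone (adjusted p = 0.52). Axl, a receptor tyrosine kinase, rose evenly by 1.65 in ImCD4 and 1.32 in ImCD8.

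**Figure D3:**
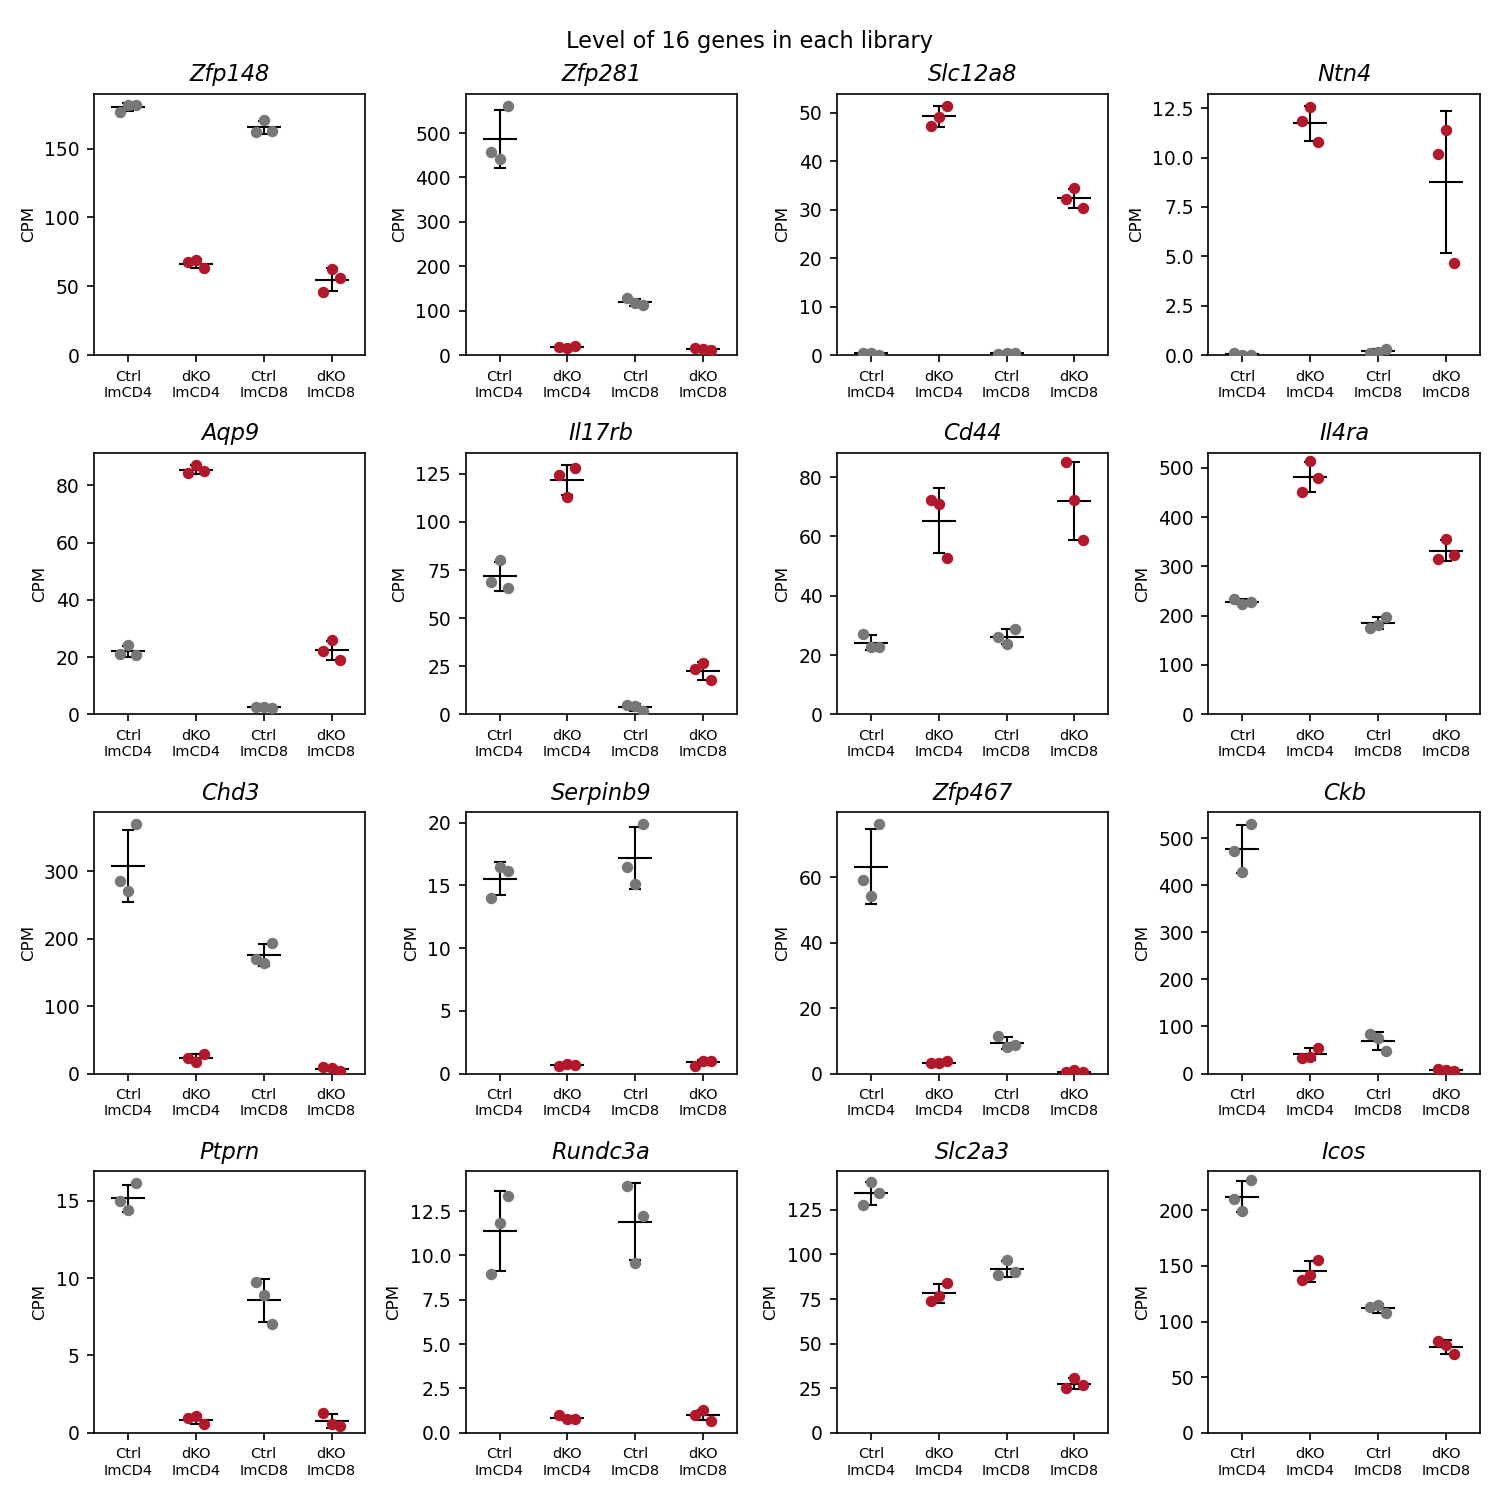
Level of 16 genes in each library (CPM, linear axes from 0), with control libraries in grey, dKO libraries in red, a horizontal line at the mean and bars of 1 SD over 3 libraries. In the panels of Slc12a8 and Ntn4 the controls lie close to 0, and in those of Serpinb9, Ptprn and Rundc3a the dKO libraries do.

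A pair of the changed genes lay next to each other. Il17rb, a subunit of the interleukin-25 receptor (chromosome 14, 29996135 to 30008896, minus strand), and Chdh, a mitochondrial choline dehydrogenase (chromosome 14, 30009023 to 30040527, plus strand), point away from each other across 126 bases. Il17rb went from 68.9, 80.3 and 65.9 to 124, 113 and 128 CPM in ImCD4 and from 4.71, 4.51 and 1.59 to 23.8, 26.6 and 17.6 CPM in ImCD8. Chdh went from 166, 172 and 137 to 255, 270 and 219 CPM in ImCD4 and from 7.51, 8.03 and 1.59 to 31.9, 34.5 and 18.0 CPM in ImCD8. For both genes every dKO library exceeded every control of its population. Their effects were also larger in ImCD8, by 1.92 ± 0.32 for Il17rb (adjusted p of the difference 0.016) and by 1.70 ± 0.50 for Chdh (adjusted p = 0.29).

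Slc12a8 starts 13.0 kb beyond the end of Zfp148 on the same strand. Within 1 Mb of Zfp148 there were 16 tested genes, of which Slc12a8 and Tnk2 were higher, Fyttd1 was lower and 13 were outside the program, counts near the 9.44% and 8.03% of all tested genes. These counts leave out size: Slc12a8 rose by 6.89 ± 0.16 on the log2 scale and had the smallest p of all tested genes. Within 1 Mb of Zfp281, 1 of 9 tested genes was higher (Platr23), 3 were lower (Csrp1, Lad1 and Tmem9) and 5 were outside. The lower share there was above the 8.03% of all tested genes, in few genes. Any part of closeness to the targeted genes in these changes was not tested. Platr23, a non-coding RNA gene that starts 0.3 kb from the start of Zfp281 and runs the other way, went from 35 summed counts to 88 in ImCD4 and from 0 to 6 in ImCD8. Because the strand setting of the counting is not stated, reads of close or overlapping genes may not be told apart.

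Because both factors are known to bind G-rich DNA, promoters were searched for CCCTCCCC and its other strand, GGGGAGGG. The window was 250 bases before to 50 bases after each start in RefSeq (GRCm38.p6). An entry was found for 919 of the 1263 genes that rose (72.8%) and 779 of the 1074 that fell (72.5%); as under 80% were matched, a check over the whole program is void, and the shares describe only the promoters found. The motif was in 23.3% of 1057 promoters of genes that fell and in 14.4% of 1212 promoters of genes that rose. It was in 12.5% of 8625 promoters of tested genes outside the program, and in 10.8% of all 32851 promoters. Mean G+C content of these windows was 61.5%, 62.2%, 60.5% and 53.8%, in the same order. In promoters of over 70% G+C the motif was in 41.8% for genes that fell, 22.6% for genes that rose and 24.7% for the others. Over promoters of any G+C content, the same motif with 1 more C at each end was in 11.5% for genes that fell. It was in 2.72% for genes that rose and 3.65% for tested genes outside the program. This longer motif, a subset of the matches, was not split by G+C content. A match describes letters only, and binding was not measured.

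**Figure D4:**
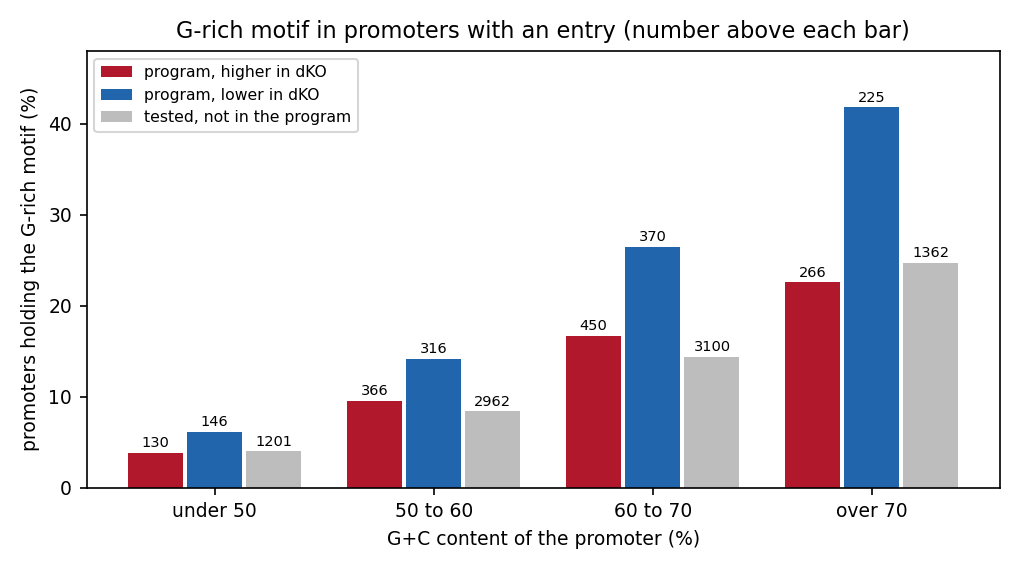
Share of promoters (vertical axis, percent) that held CCCTCCCC or its other strand, by the G+C content of the promoter and by membership, with the number of promoters above each bar. Genes that fell had the highest bar in every band, from 6.16% to 41.8%.

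Among the 12 largest falls, 10 genes had a promoter entry and 4 of these held the motif (Zfp467, Ndrg2, Igsf23 and Espn), and among the 12 largest rises it was 2 of 10 (Ntn4 and Cd44). A gene counted when any of its entries matched, and Ndrg2, Igsf23 and Espn also had entries without the motif. The shares above are per promoter, so these counts per gene cannot be set against them. No share per gene was computed over all tested genes. The stretches below run from 200 to 51 bases before the start, 5′ to 3′ on the strand of the gene, with matches in capitals. They show 3 of the genes that fell and 1 that rose. Coordinates are chr6:48445141-48445290 (minus), chr4:152152440-152152589 (minus), chr7:19950794-19950943 (minus) and chr10:93640849-93640998 (plus), in RefSeq's GRCm38.p6.
Zfp467: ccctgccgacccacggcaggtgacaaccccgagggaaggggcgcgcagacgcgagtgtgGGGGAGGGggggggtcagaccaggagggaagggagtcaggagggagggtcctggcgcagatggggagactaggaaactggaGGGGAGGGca
Espn: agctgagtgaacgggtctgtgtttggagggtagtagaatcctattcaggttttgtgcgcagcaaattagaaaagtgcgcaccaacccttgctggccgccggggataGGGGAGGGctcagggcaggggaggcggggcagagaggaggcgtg
Igsf23: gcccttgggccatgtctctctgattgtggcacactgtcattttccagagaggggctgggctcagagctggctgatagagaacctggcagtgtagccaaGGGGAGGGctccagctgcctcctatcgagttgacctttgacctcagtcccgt
Ntn4: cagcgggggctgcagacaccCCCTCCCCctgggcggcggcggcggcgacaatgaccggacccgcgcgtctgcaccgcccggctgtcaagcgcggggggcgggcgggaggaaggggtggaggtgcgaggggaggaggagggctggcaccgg
In the stretches of Zfp467, Espn and Igsf23 the capitals read GGGGAGGG on the strand of the gene, at 2 places in Zfp467 and at 1 in the others. In Ntn4, which rose, they read CCCTCCCC. The strand of the match did not follow direction among the genes with a match. Cd44, which rose, held GGGGAGGG, and Ndrg2, which fell, held both readings.

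The 18 gene lists below give the members by role, each count being of tested members in the common program. For each list these counts stand against 9.44% higher, 8.03% lower and a median of 0.01 over all tested genes. Chromatin genes fell more often than they rose. The list of NuRD and other remodellers also held Satb1, Ikzf1, Ikzf2 and Ikzf3. Of its 20 genes, 7 fell (Chd3, Chd4, Gatad2b, Hdac2, Mta3, Smarca4 and Smarcc1), 3 rose (Gatad2a, Mbd3 and Mta1) and 10 were not members, with a median effect of -0.10. Mta3, which encodes a scaffold subunit of NuRD, measured 43.9, 43.5 and 36.8 CPM in control ImCD4 against 23.4, 21.5 and 15.2 in dKO, and 82.0, 83.1 and 93.2 CPM in control ImCD8 against 40.6, 41.1 and 50.6 in dKO. Within each population its groups did not overlap, and it fell by 1.04 and 0.97 on the log2 scale. Gatad2b fell by 0.34 ± 0.06, while its paralog Gatad2a rose by 0.24 ± 0.05. Changes in this list other than those of Chd3 and Mta3 were thus well under 2-fold among the members named.

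Factors that bind GC boxes or G-rich DNA moved both ways. Of 18, 6 fell and 5 rose, with a median of -0.10. The 6 include the targeted Zfp148 and Zfp281, whose fall belongs to the design. Apart from the targeted genes, Zfp467 and Zfp219 fell, the latter on average from 61.4 to 27.8 CPM (ImCD4) and from 35.2 to 16.8 CPM (ImCD8) (mean effect -1.10 ± 0.13, edgeR adjusted p = 7.9e-05). Sp1 and Klf7 also fell. Klf2, which promotes thymic exit, rose by 0.58 ± 0.09, and Vezf1 by 0.22 ± 0.05, and Klf6, Maz and Sp2 rose too.

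Some genes best known from neurons and neuroendocrine cells were among the largest falls. Their list was chosen with earlier results of these data known, so its counts describe the members only. Of 40 listed, 17 were expressed enough to be tested; 8 fell (Bex2, Cacnb3, Ckb, Ddc, Eno2, Nsg2, Ptprn and Rundc3a), 3 rose (Pcsk1, Rab3a and Tubb3) and 6 were not members. The median effect was -0.49. Ptprn went from 15, 14.4 and 16.1 to 0.981, 1.05 and 0.535 CPM in ImCD4 and from 9.75, 8.87 and 7.02 to 1.27, 0.552 and 0.455 CPM in ImCD8. Rundc3a went from 8.95, 11.8 and 13.4 to 0.981, 0.766 and 0.749 CPM in ImCD4 and from 13.9, 9.58 and 12.2 to 1.02, 1.29 and 0.682 CPM in ImCD8. Neither gene overlapped between control and dKO. In the other direction Tubb3, a neuronal beta-tubulin, rose by 1.26 ± 0.22, and Pcsk1, a prohormone convertase, by 2.04 ± 0.33, although its ImCD4 libraries overlapped at 2.36, 1.44 and 1.70 against 8.74, 5.26 and 1.71 CPM.

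Glycolysis genes moved both ways, in places between isoforms of 1 step. Of 19 glycolysis genes, 7 rose (Aldoa, Eno1, Gpi1, Ldha, Pfkl, Pgk1 and Slc2a1), 4 fell (Gapdh, Pfkm, Pkm and Slc2a3) and 8 were not members, with a median of 0.11. Slc2a3, the high-affinity glucose transporter GLUT3, fell from 128, 141 and 134 to 73.7, 76.8 and 83.9 CPM in ImCD4 and from 88.3, 96.8 and 90.3 to 25.1, 30.7 and 26.9 CPM in ImCD8. The groups lay well apart, and the fall was larger in ImCD8 by 0.94 ± 0.12 (adjusted p of the difference 0.0014). Pfkm, the muscle-type phosphofructokinase, fell by 1.22 ± 0.09 (edgeR adjusted p = 2.3e-07) and Pkm, pyruvate kinase, by 0.73 ± 0.06. Aldoa, the aldolase, rose by 0.56 ± 0.05 and Eno1, enolase, by 0.35 ± 0.05.

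Of 24 genes of cholesterol and fatty acid synthesis, 7 rose (among them Acaca, Cyp51, Fasn, Insig1 and Srebf2), 1 fell (Acly) and 16 were not members, with a median of 0.18. Acaca, the acetyl-CoA carboxylase that commits acetyl-CoA to fatty acids, rose by 0.37 ± 0.09, and Acly, which makes cytosolic acetyl-CoA, fell by 0.21 ± 0.06.

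Cytokine receptors and their feedback inhibitors were changed in both directions. Of 23 tested, 8 rose (Cish, Il12rb2, Il17rb, Il21r, Il4ra, Il6ra, Socs1 and Tgfbr2), 4 fell (Il10ra, Il12rb1, Il2rg and Il7r) and 11 were not members, with a median of 0.15. Il4ra, the interleukin-4 receptor alpha chain, rose from 234, 223 and 228 to 451, 513 and 480 CPM in ImCD4 and from 176, 181 and 198 to 316, 356 and 324 CPM in ImCD8. Its mean effect was 0.96 ± 0.05 (edgeR adjusted p = 3.4e-09), with no overlap in either population. Il2rg, the common gamma chain with which Il4ra pairs, fell from 627, 590 and 618 to 412, 436 and 407 CPM in ImCD4 and from 553, 585 and 537 to 476, 451 and 402 CPM in ImCD8 (-0.44 ± 0.05, adjusted p = 1.7e-05). Il7r, the interleukin-7 receptor alpha chain, measured -0.27 ± 0.08 (adjusted p = 0.0286), a call lost when any of 8 single libraries was left out. The feedback inhibitors Cish and Socs1 rose by 1.06 ± 0.22 and 0.54 ± 0.12, and for both the highest dKO library in each population was the one set apart on the third component. Il10ra fell by 1.09 ± 0.21 (adjusted p = 0.0037), which without the 4 libraries set apart had an adjusted p of 0.0991.

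The T cell receptor complex and its proximal signalling genes were lower more often than higher. Of 24, 7 fell (Cd247, Cd5, Cd6, Grap2, Lat, Ptprc and Vav1), 3 rose (Cd3e, Ptpn22 and Ubash3a) and 14 were not members, with a median of -0.01; with library size only, 8 fell and 1 rose. Cd247, the zeta chain of the receptor complex, went from 464, 451 and 519 to 344, 368 and 377 CPM in ImCD4 and from 323, 355 and 335 to 274, 275 and 245 CPM in ImCD8 (-0.37 ± 0.05, edgeR adjusted p = 0.00013). The inhibitory receptor Cd6 fell by 0.48 ± 0.08, and Ubash3a, a negative regulator of receptor signalling, rose by 0.29 ± 0.05. The call of Cd3e (0.33 ± 0.10, adjusted p = 0.0303) was lost in 10 of 21 alternatives, with adjusted p up to 0.123. Among these were the fit without the 4 libraries, library size only, and most fits that left out 1 library. That of Lat (-0.25 ± 0.08) was lost when any of 8 single libraries was left out (adjusted p up to 0.0977). Of 24 genes induced by receptor signals, 4 rose (Dusp2, Dusp4, Myc and Nfkbid), 1 fell (Dusp5) and 19 were not members, with a median of 0.0025. The phosphatase gene Dusp2, a brake on MAP kinases, rose from 361, 342 and 331 to 582, 653 and 881 CPM in ImCD4 and from 507, 508 and 541 to 690, 662 and 826 CPM in ImCD8. Dusp5, of the same family, fell by 0.45 ± 0.07.

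Genes of both lineages were among the members. Of 10 CD4-lineage genes, 3 rose (Cd4, Ctla4 and Gata3), 1 fell (Icos) and 6 were not members, with a median of 0.15. Icos, a costimulatory receptor, went from 210, 199 and 227 to 138, 142 and 156 CPM in ImCD4 and from 113, 115 and 107 to 82.7, 79.3 and 70.4 CPM in ImCD8. Its fall was 0.55 and 0.53 on the log2 scale, and no library overlapped. Gata3, which is needed for CD4 commitment, rose by 0.37 ± 0.07, and Cd4 by 0.81 ± 0.23 (adjusted p = 0.0322). Cd4 rose by 0.31 in ImCD4 and by 1.32 in ImCD8, and passed in neither alone (adjusted p of 0.36 and 0.095). In ImCD8 its mean went from 3.06 to 7.66 CPM, and the libraries overlapped. The call of Cd4 was lost in 12 of 21 alternatives, among them every fit that left out 1 library of control or dKO ImCD4. Of 18 CD8-lineage and cytotoxic genes, 2 rose (Cd160 and Cst7), 2 fell (Ctsw and Prf1) and 14 were not members, with a median of -0.08, or 0.11 without Gzmk, which had a group at 0 counts. Prf1, the pore-forming protein of killer cells, fell from 10.2, 8.84 and 4.66 to 3.75, 4.31 and 2.46 CPM in ImCD4 and from 37.0, 37.9 and 61 to 16.3, 13.3 and 21.8 CPM in ImCD8. Cd160 rose mainly in ImCD4, by 1.69 against 0.30 in ImCD8.

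Genes of innate-like, memory-like and gamma-delta T cells that met the rule of the common program all rose. Of 17 tested, 6 rose (Cd163l1, Cd44, Id3, Il17rb, Sox13 and Tcrg-C1) and 11 were not members, with a median of 0.38, or 0.40 without Cxcr3, which had a group at 0 counts. The number that fell in both populations was 0 in edgeR, at an unadjusted p of 0.05 in edgeR, in DESeq2 and in limma-voom. This count leaves out listed genes with opposite signs in ImCD4 and ImCD8. Of these, Id2 and Etv5 had a called mean fall (-0.55 and -0.30) and Il2rb a called mean rise (0.42). Sox13, a transcription factor of gamma-delta cells, measured 18.8, 20.3 and 21.6 CPM in control ImCD4 and 178, 190 and 285 in dKO, but only 0.896, 1.13 and 1.38 CPM in control ImCD8 and 1.40, 2.48 and 2.50 in dKO. Cd163l1 had its levels in dKO ImCD8, at 4.19, 4.60 and 6.94 CPM, and stayed under 1 CPM in each other group. In bulk samples, a change in RNA per cell and a change in the share of cells of a type cannot be told apart.

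Of 22 genes of migration, egress and maturation, 5 rose (Ccr8, Klf2, Ms4a6b, Slfn1 and Slfn2) and 3 fell (Ccr7, Cd24a and Il7r), with a median of 0.13, or 0.14 without Cxcr3. Without the 4 libraries set apart, 9 rose and 4 fell. Ccr7, the chemokine receptor that draws single-positive cells to the medulla, went from 547, 545 and 731 to 278, 269 and 317 CPM in ImCD4 and from 821, 937 and 967 to 755, 761 and 813 CPM in ImCD8. The fall was larger in ImCD4 by 0.85 ± 0.15 (adjusted p of the difference 0.0172). Ccr8 rose from 117, 121 and 149 to 172, 218 and 224 CPM in ImCD4 and from 14.9, 30.7 and 17.0 to 76.5, 112 and 72.0 CPM in ImCD8, and Slfn1, a gene linked to T cell quiescence, by 0.66 ± 0.07. Of 11 genes of receptor recombination and the pre-T cell receptor stage, 1 rose (Dntt), 2 fell (Cd24a and Notch3) and 8 were not members, with a median of 0.04. Dntt, which adds bases at receptor gene joints, went from 58.6, 45.2 and 42.3 to 87.5, 86.2 and 78.7 CPM in ImCD4 and from 50.8, 47.5 and 34.0 to 120, 106 and 91.0 CPM in ImCD8. The call of Cd24a, a marker of immature thymocytes (-0.69 ± 0.21, adjusted p = 0.0478), was lost in most fits that left out 1 library (adjusted p up to 0.133).

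Galectins, annexins, S100 proteins and myosins moved both ways. Of 22, 9 rose (Anxa2, Lgals1, Lgals3, Lgals9, Myo1e, Myo1f, Myo6, S100a10 and S100a11), 5 fell (Anxa6, Capg, Myh10, Myh9 and Myo1g) and 8 were not members, with a median of 0.17. Lgals9, a galectin that binds inhibitory T cell receptors, rose from 200, 220 and 182 to 309, 343 and 288 CPM in ImCD4 and from 211, 253 and 220 to 322, 293 and 294 CPM in ImCD8. Anxa6 fell by 0.34 ± 0.05 and the actin-capping gene Capg by 0.54 ± 0.09.

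Of 15 apoptosis and survival genes, 1 rose (Bbc3), 2 fell (Bcl2l1 and Mcl1) and 12 were not members, with a median of 0.05. Bbc3, which encodes the death-promoting protein PUMA, went from 44.5, 43.3 and 48.6 to 65.3, 71.7 and 78.1 CPM in ImCD4 and from 20.4, 21.0 and 25.3 to 35.4, 32.0 and 31.5 CPM in ImCD8 (0.61 ± 0.07, edgeR adjusted p = 2.4e-05). No library overlapped. The survival genes Bcl2l1 (-0.26 ± 0.08, adjusted p = 0.0323) and Mcl1 (-0.14 ± 0.04, adjusted p = 0.0396) lay near the threshold. The call of Bcl2l1 was lost when any of 7 single libraries was left out (adjusted p up to 0.0833). That of Mcl1 was lost in 14 of 21 alternatives (adjusted p up to 0.26). Among these were RLE size factors, the fit without the 4 libraries, and most fits that left out 1 library. Of 24 interferon-stimulated genes, 3 rose (Ifi27l2a, Irf7 and Tap1), 3 fell (Gbp2, Psmb8 and Zbp1) and 18 were not members (median 0.12), 12.5% in each direction and so close to the shares of all tested genes. Without the 4 libraries 4 rose and 1 fell, and Zbp1 also lost its call without replicate 2 of dKO ImCD8 (adjusted p up to 0.0694). Of 18 regulators in the TGF-beta, Notch and Wnt pathways, 4 rose (Axin1, Axin2, Smad3 and Tgfbr2), 0 fell and 14 were not members (median 0.06). In edgeR 1 of these fell in both populations at an unadjusted p of 0.05, 0 fell in DESeq2 or limma-voom, and 2 rose when libraries were scaled by size alone. Skil, also listed, had a called mean fall (-0.31, edgeR adjusted p = 0.00037). With -0.65 in ImCD4 and 0.02 in ImCD8 it was no member.

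Cell cycle and DNA replication genes stayed largely outside the program. Of 30 tested, 1 rose (Ccnd3, the cyclin D3 gene, by 0.26 ± 0.05), 0 fell and 29 were not members, with a median of 0.02. In edgeR 1 gene fell at an unadjusted p of 0.05, and 0 fell in DESeq2 or limma-voom after adjustment. These shares, 3.33% and 0%, were below the 9.44% and 8.03% of all tested genes.

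**Figure D5:**
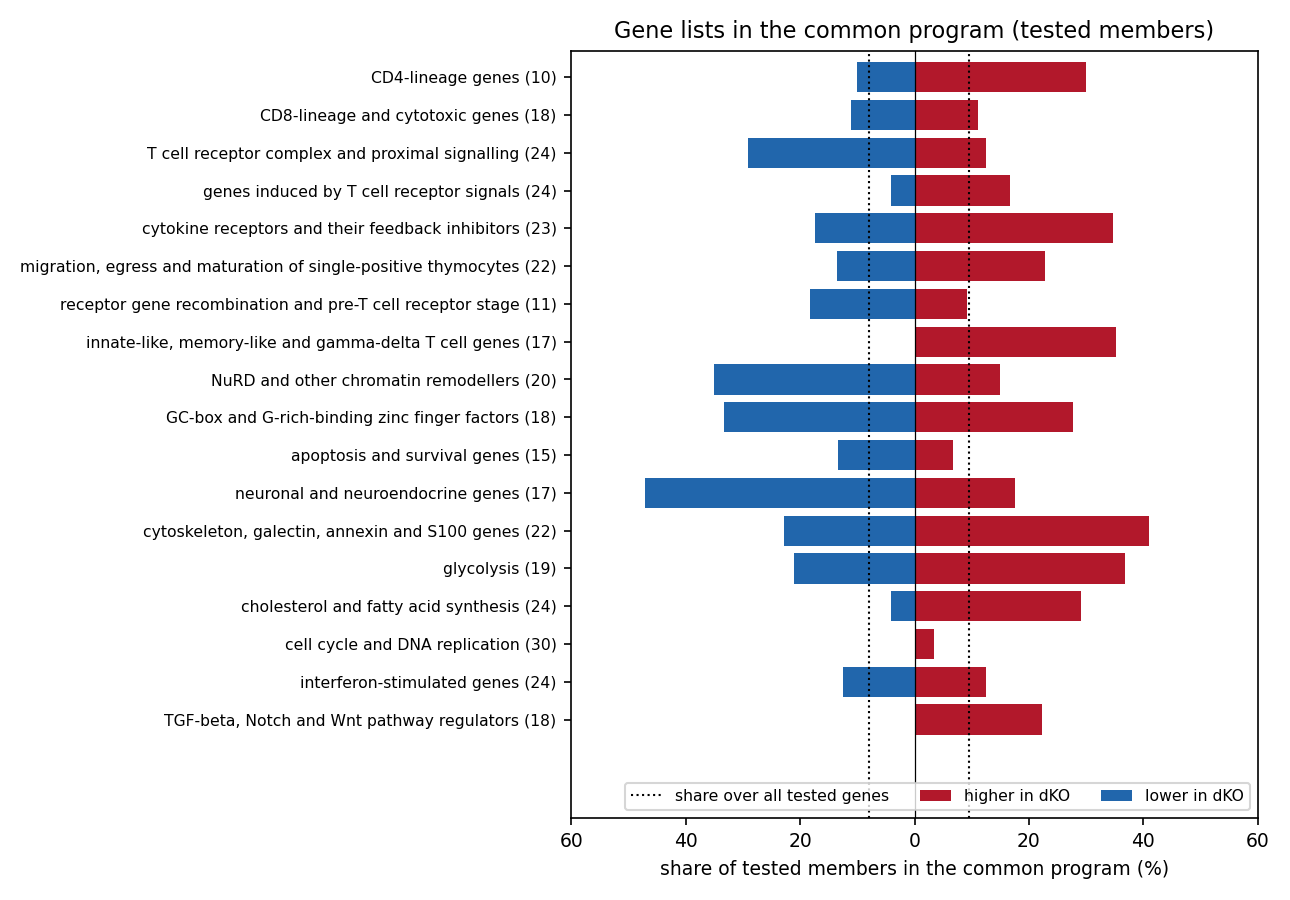
Share of the tested members of each of the 18 lists (percent, number tested in brackets) that were in the common program, higher in dKO to the right and lower to the left, with dotted lines at 9.44% and 8.03%, the shares of all tested genes. Neuronal and neuroendocrine genes have the longest bar to the left and the cytoskeleton and galectin list the longest to the right. The lists were chosen with earlier results of these data known, and the GC-box and G-rich list includes the targeted Zfp148 and Zfp281.

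Some members passed only through the average. The 655 called in neither population alone had a median mean effect of 0.30 for the 376 that rose and -0.32 for the 279 that fell, values that depend on the rule. Those named here rose by 0.38 to 1.20 (Paox, Vat1, Fam124b, Smurf2, Dip2c and Rps18) or fell by 0.21 to 0.76 (Mbd4, Smco4, Ptpn9, Zcchc12, Brd2 and Cand2). Paox, a polyamine oxidase, measured 19.3, 21.8 and 17.8 CPM in control ImCD4 and 23.3, 30.7 and 24.5 in dKO, and 20.8, 19.4 and 16.6 CPM in control ImCD8 and 29.7, 25 and 24.1 in dKO. Its effects were 0.41 and 0.47, with edgeR adjusted p of 0.0558 and 0.0573 alone and 0.0047 for the mean. Brd2, a reader of acetylated histones, fell from 492, 503 and 471 to 427, 446 and 409 CPM in ImCD4 and from 418, 440 and 429 to 392, 366 and 345 CPM in ImCD8. Neither gene overlapped between control and dKO. Mbd4, a DNA glycosylase that repairs mismatches at methylated sites, fell by 0.44 ± 0.10, and Smurf2, a ubiquitin ligase of the TGF-beta pathway, rose by 0.45 ± 0.10. The ribosomal protein gene Rps18 rose by 0.38 ± 0.08 (adjusted p = 0.0060), which without the 4 libraries had an adjusted p of 0.0802.

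For 38 genes the mean effect was called although the fitted effects had opposite signs in the populations, and these were not counted in the program. Alone, 25 of them were called in ImCD4 only and 13 in ImCD8 only. The difference between the populations was called for 14, and for some genes the opposite value was close to 0. Id2, an inhibitor of E proteins, measured 683, 643 and 764 CPM in control ImCD4 and 804, 753 and 914 in dKO, but 206, 151 and 228 CPM in control ImCD8 and 80.8, 65.8 and 86.3 in dKO. Only the ImCD8 fall (-1.33) passed alone. Socs3, a feedback inhibitor of cytokine signals, went the other way, with -1.99 in ImCD4 and 0.48 in ImCD8. For Id2 and Socs3 the mean describes neither population, and in an additive model with 1 common effect the Socs3 value turned from -0.75 to 0.22 (adjusted p = 0.63). Olfml3, Pim1, Synpo and Vipr1 also had fitted effects of opposite signs, and each lost its mean call when single libraries were left out.

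Markers of other cells were followed beside these results. Summed over the listed genes, B cell markers ranged from 72.1 to 95.6 CPM in control ImCD4 and 64.3 to 91.3 in dKO, and from 310 to 402 CPM in control ImCD8 and 365 to 497 in dKO. Of the 3 tested B cell markers only Cd79b was a member (1.16 ± 0.20). Of the 4 tested myeloid markers 0 were members, and 0 changed in 1 direction in both populations at an unadjusted p of 0.05 in edgeR or after adjustment in DESeq2 or limma-voom. Epithelial and erythroid markers summed to at most 23.2 and 83.2 CPM in any library, with Epcam (0.70 ± 0.16) and Car2 (0.81 ± 0.12) as members. The 6 natural killer cell markers, all too low to be tested, summed to at most 0.178 CPM in any ImCD4 library. In ImCD8 their sums overlapped, at 1.79 to 12.2 CPM in control and 1.10 to 2.54 in dKO. Of these markers, Ncr1 and Klra8 were at 0 in all 12 libraries. Markers of double-positive thymocytes were higher in dKO without overlap in both populations, at 1792 to 1951 against 1541 to 1661 CPM in ImCD4 and at 2075 to 2415 against 1967 to 2063 CPM in ImCD8. Most of these sums was the coreceptor of the gate, Cd4 at 1115 CPM in control and 1380.0 in dKO ImCD4, and Cd8a at 1626 and 1769 CPM in ImCD8. Without Cd4 and Cd8a the other 6 tested markers overlapped in ImCD4 (351 to 493 CPM in dKO, 364 to 491 in control) and were higher in ImCD8 (440 to 511 against 360 to 413). Of the 8 tested, Cd4 and Dntt were members, 6 were not, and Rag1 and Rag2 averaged at most 4.11 CPM in any group. Without the 4 libraries, Arpp21 and Cd8a were members as well. The part of these markers in the rises of Cd4 and Dntt, and in the rest of the program, was not tested. Of 10 T cell identity genes, Cd3e rose and Thy1 fell, the latter from 43.7, 41.3 and 32.5 to 12.5, 11 and 7.16 CPM in ImCD4 and from 158, 162 and 144 to 112, 93.0 and 120 CPM in ImCD8.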

How the data were processed

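Libraries of sorted thymocytes were made with a low-input messenger RNA kit, per the labels' protocols. The submitters' processing notes list the mm10 genome and, as tools, cutadapt 1.18, STAR 2.6.1 and HTSeq, without roles. The gene annotation and the strand setting of the counting were not stated there. Each deposited table holds the authors' whole-number counts of reads per gene symbol, unnormalized, with 53656 rows for genes and 5 for summaries. The summaries entered neither library sizes nor tests. They were 10.5% to 16.4% of a library for reads in no gene, 5.37% to 5.82% for ambiguous reads and 3.87% to 5.39% for reads not uniquely aligned.

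Tests used edgeR 4.0.16 in R 4.3.3 (filterByExpr, minimum count 10 and total 15; TMM scaling, factors 0.946 to 1.036; robust quasi-likelihood fit). A single model of 4 group means (8 residual degrees of freedom) gave the effect in each population, their mean and their difference, as two-sided tests with Benjamini-Hochberg adjustment over 13383 genes. Adjusted p-values come from this test unless another is named, and ± beside a log2 value is its standard error. Any pair of libraries within a group differed beyond counting noise (chi-square per degree of freedom at least 3.53), so none was merged. The model was tested on simulated data.

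The members, the 18 gene lists and the 7 marker lists were chosen with earlier results of these data known. Genes named with values are the targeted genes and the 12 largest rises and falls with at least 5 CPM in the higher group and no overlap in both populations. To these the rule adds up to 2 members of each list per direction, 6 rises and 6 falls gained by averaging, 6 genes with opposite directions, 6 members that differ between populations and the 2 most abundant markers of each list. Predicted genes, pseudogenes and receptor segments were left out. Thy1, Cacnb3, Zfp219, Sox13, Cd163l1, Gatad2b, Cish, Socs1, Pkm, Lat, Il2rb, Cd40lg, Rag1, Rag2 and Platr23 are named outside this rule, after their values were seen, and a few genes chosen by it are not reported here. Gene positions are from GENCODE vM21 on GRCm38, the assembly of mm10. Alternatives were RLE size factors, library size only, no filter, over 5 CPM in 3 libraries, DESeq2 1.42.0, limma-voom (limma 3.58.1), an additive model, leaving out the 4 libraries that lay away from the rest, a model term for them, and leaving out each library in turn.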

Additional observations from a re-analysis of the deposited data

Results flagged for a closer look

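For 17 of the genes named by rule or from their values, the effect itself differed between the populations (edgeR quasi-likelihood test of the difference, adjusted over all 13383 genes). Values are the log2 effect in ImCD4 minus that in ImCD8. Among members that fell, the difference was -1.49 for the targeted Zfp281 (adjusted p = 0.0017), -1.45 for the palmitoyltransferase gene Zdhhc15 (7.0e-05), -1.41 for Thy1 (0.0112) and -0.85 for Ccr7 (0.0172), all with the larger fall in ImCD4. The fall was larger in ImCD8 for Notch3, with a difference of 2.10 (0.0342), and for Slc2a3, with 0.94 (0.0014).

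Among members that rose, the difference was 3.30 for the growth factor gene Pdgfb (adjusted p = 0.0017), 1.39 for Cd160 (0.00067) and 1.09 for Uhrf1, which guides maintenance of DNA methylation (0.00075), all with the larger rise in ImCD4. It was -1.92 for Il17rb (0.0161) and -1.21 for Aqp9 (0.0098), with the larger rise in ImCD8. Uhrf1 had an effect of 1.10 in ImCD4 and of 0.01 in ImCD8, so the sign that kept it in the program rests on a value close to 0.

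Genes whose fitted effects had opposite signs, and which were therefore no members, gave differences of -2.48 for Socs3 (adjusted p = 0.0308), -2.0 for Pim1 (0.0364), 1.57 for Id2 (0.0030), 1.52 for Vipr1 (0.0097), 1.07 for Il2rb (0.00016) and -1.13 for Cd40lg (0.0265). Cd40lg, the CD40 ligand gene of helper T cells, measured 3.14, 5.07 and 3.19 CPM in control ImCD8 and 8.51, 7.91 and 6.03 in dKO, far below the 244 to 296 CPM of control ImCD4.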

How the results depend on the processing

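The common program held 1802 genes (without replicate 1 of control ImCD8) to 3207 (with a term for the 4 libraries apart on the third component) over the alternatives, against 2337. Leaving out 1 library gave 1802 to 2385 members, 937 to 1380 higher and 865 to 1037 lower, 1829 to 2414 genes called on the mean, 483 to 757 members called in neither population alone, and 22 to 36 members whose effects differed. These counts stayed within 1.5 times the reported ones. Of the 2337 members, 1523 were in the program in all 12 such fits and 1281 under every alternative. A member not tested under an alternative counted as out, and the filter of over 5 CPM in 3 libraries left 250 members untested. The 30 members whose effects differed between populations became 119 with no filter, 70 with DESeq2, 59 without the 4 libraries and 102 with the term for them; the cause was not tested. With library size only the higher share of the program was 47.3%, against 54.0%. Socs3, no member, reversed to 0.22 in the additive model. Over 132 named genes and the alternatives in which each was tested, 2629 of 2765 values kept direction and side of the threshold, 130 lost the call, 5 gained it and 1 reversed. No paired analysis was possible because the labels carry no replicate numbers shared between groups; the 4 libraries are replicate 3 of every group only by the order of the records, and the term for them, which gave the 3207, sets them against the other 8. With 3 libraries a group, genes of few counts such as Ntn4 and Platr23 have wide counting intervals, and small effects in 1 population may be missed.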
